A study of Sus scrofa domesticus and Sus scrofa with 18 samples.

Results

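The set described here holds 90 long non-coding RNAs (lncRNAs) whose level in the pig spleen was higher in adult animals than before and at birth. They were 90 of the 15040 lncRNAs quantified, or 0.598%. The members were chosen by measured values: on the log2(FPKM+1) scale, the means of the 180-day and of the 2-year domestic pigs both had to exceed the means of the fetal and of the newborn pigs by at least 0.75, and the mean over all 18 libraries had to be below 5. FPKM is the number of fragments per kilobase of transcript, scaled to the mapped reads of the library, so it is a level per length, and the log2 transformation compresses differences of lowly expressed transcripts. In all, 92 lncRNAs passed the difference of 0.75, of which 1 was removed by the ceiling of 5, and TU78568, which also passed, was left out by name. The difference between the lower adult mean and the higher early mean is called the margin below. The margin and the 4 group means behind it describe how the set was made, and no test is given for them.

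Spleens of Rongchang pigs, a Chinese indigenous domestic breed, were sampled 55 days before birth (E55d), just after birth (B0d), 30 days after weaning (W30d), at 180 days (A180d) and at 2 years (A2Y), and spleens of 2-year-old Wild Boars (WB) were added. The age at W30d follows the methods of the study. Its abstract instead counts 30 days from birth, and its results place W30d in the suckling period. The animals were healthy females, and each of the 6 groups had 3 libraries from separate animals, which gave 18 strand-specific total RNA libraries of whole spleen. The 3 E55d libraries are used without a replicate number, since the numbers on their columns do not all match the sample labels. Wild Boars differ from the domestic groups in breed and origin as well as in age, except that they share the age of A2Y, and breed cannot be told apart from keeping or collection site.

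LncRNAs are long transcripts that pass filters for lack of coding potential. Some act on chromatin or on neighbouring genes, many are expressed at low levels and in few cell types, and for most transcripts assembled from reads no function is known. The spleen of the fetus takes part in blood formation, while the spleen after birth filters blood, recycles iron from old red blood cells, and fills with B cells and T cells, which build its white pulp. The members carry only assembly names (TU numbers), no function is known for them here, and their sequences were not used here.

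Whole-series facts that touch these values were the following. The median log2(FPKM+1) of all 15040 lncRNAs ranged from 0.51 to 0.70 in the early libraries (E55d and B0d), from 0.37 to 0.51 at W30d, from 0.16 to 0.22 at A180d, from 0.38 to 0.57 at A2Y and was 0.20 or 0.21 in WB. The number of lncRNAs detected was from 10929 to 11471 per library at A180d and from 11225 to 11305 in WB, against 12133 to 13359 in the other 4 groups. The median of protein-coding genes was between 2.21 and 2.66 over all libraries. The files give no read counts, so the depth behind a single value is unknown.

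Against this background of low lncRNA levels at A180d, the members had their highest library medians in the adult domestic pigs. The median over the 90 members was between 0.16 and 0.31 in the E55d libraries, between 0.35 and 0.45 at B0d, between 0.95 and 1.57 at W30d, between 1.71 and 1.99 at A180d, between 1.74 and 2.06 at A2Y, and between 1.17 and 1.36 in WB. In the E55d and B0d libraries the members therefore lay below the median of all lncRNAs, and in every other library above it. The summed FPKM of the members went from 87.9 to 104 at E55d and from 190 to 243 at B0d to between 611 and 662 at A180d and between 627 and 730 at A2Y. In WB the sum was between 465 and 571. From 58 to 67 of the members were detected in an E55d library and 89 or 90 in every A180d and A2Y library.

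**Figure D1:**
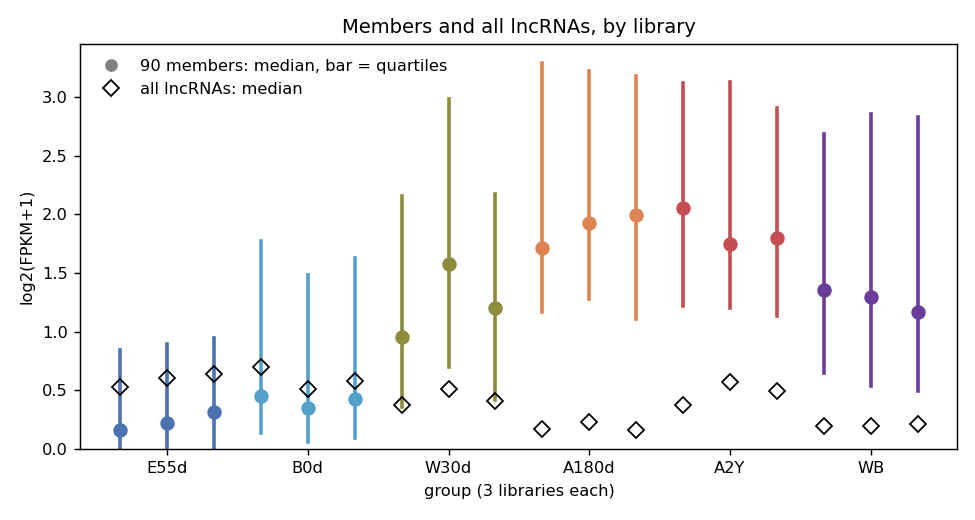
Median log2(FPKM+1) of the 90 members (filled circles, vertical bars from the lower to the upper quartile) and of all 15040 lncRNAs (open diamonds) in each of the 18 libraries, in order of group. The members' medians are below the diamonds at E55d and B0d and reach from 1.71 to 2.06 in the A180d and A2Y libraries, where the diamonds lie between 0.16 and 0.57.

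On the deposited values the set is small beside its counterpart. By the same margin in the opposite direction, with no ceiling, 399 lncRNAs (2.65%) were lower in both adult domestic groups than in both early groups. Among the 12913 protein-coding genes, 860 (6.66%) were higher and 533 (4.13%) were lower in the adult groups by this margin. These counts are descriptions of the same selection and were not tested. They depend on how the general level of lncRNAs is treated. With libraries scaled by their lncRNAs, 175 lncRNAs met the rule, and the opposite count was not computed under that scaling.

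TU67200 had the largest margin, 3.14. Its log2(FPKM+1) was 0.08, 0.19 and 0.07 in the E55d libraries, 1.00, 0.53 and 1.49 at B0d, 2.06, 4.75 and 3.08 at W30d, 4.06, 4.40 and 4.96 at A180d, 4.64, 3.91 and 3.88 at A2Y, and 2.11, 3.04 and 2.49 in WB. In linear units its mean was 0.0818 FPKM at E55d, 21.9 FPKM at A180d and 5.06 FPKM in WB. Every A180d and A2Y library was above every early and every WB library, whereas the W30d libraries spanned much of the range.

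TU28279, with a margin of 2.33, had values of 0.12, 0.52 and 0.07 at E55d, 0.00, 0.14 and 0.50 at B0d, 1.35, 2.54 and 1.24 at W30d, 2.91, 2.82 and 2.55 at A180d, 2.71, 2.08 and 2.91 at A2Y, and 1.38, 2.25 and 1.70 in WB. TU19335 was flat in the early libraries, between 0.03 and 0.17 in all 6, and then had 0.70, 1.47 and 1.82 at W30d, 2.02, 2.47 and 2.45 at A180d, 2.81, 2.30 and 1.70 at A2Y, and 1.76, 1.59 and 1.45 in WB. In both transcripts the lowest adult domestic library was above all early libraries.

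TU50529 was not detected in any E55d library or in 2 of the 3 B0d libraries, where the other had 1.60. It reached 1.23, 3.02 and 1.22 at W30d, 3.22, 2.95 and 1.60 at A180d, 3.47, 3.04 and 2.76 at A2Y, and 1.50, 1.11 and 1.78 in WB. Its groups overlap, because the highest B0d library and the lowest A180d library are both at 1.60. TU73397 was more regular, with 0.00, 0.00 and 0.06 at E55d, 0.77, 0.59 and 0.63 at B0d, 0.81, 1.91 and 1.26 at W30d, 2.35, 2.68 and 2.43 at A180d, 2.91, 2.84 and 2.47 at A2Y, and 1.42, 1.66 and 1.35 in WB.

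TU68881 spread widely among animals of the same age. It had 0.08, 0.34 and 0.51 at E55d, 0.23, 1.47 and 1.40 at B0d, 2.89, 1.3 and 1.67 at W30d, 3.58, 2.28 and 4.32 at A180d, 1.57, 3.25 and 3.52 at A2Y, and 1.39, 3.20 and 4.95 in WB. The WB libraries alone reached below and above all adult domestic libraries.

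**Figure D2:**
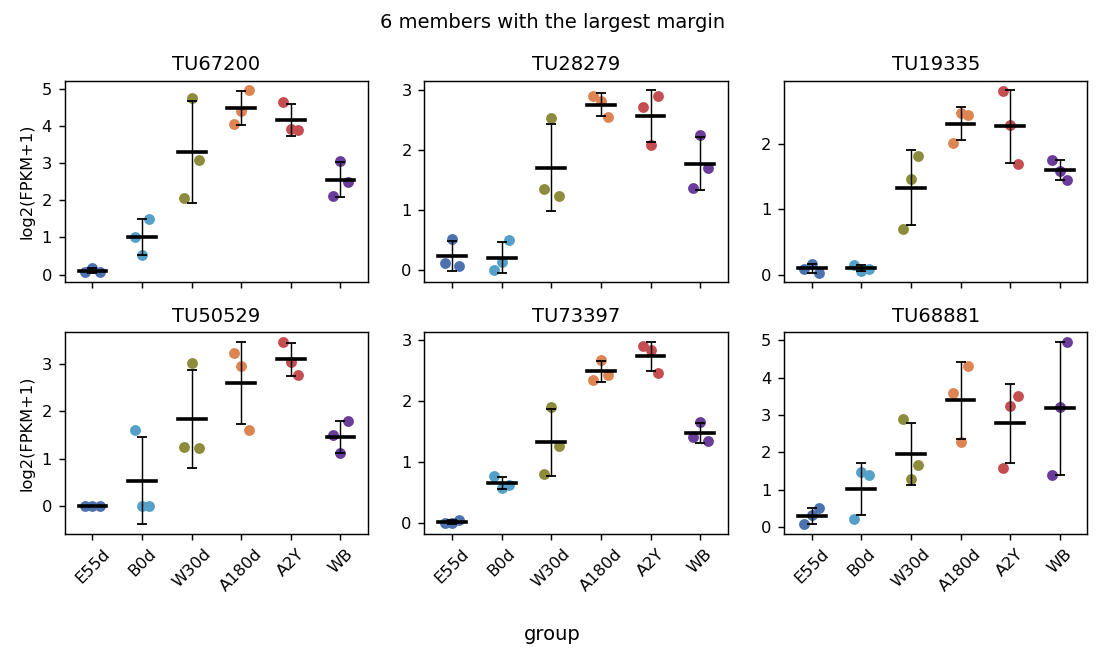
Level of the 6 members with the largest margin, as log2(FPKM+1) on the vertical axis, by group on the horizontal axis, with 1 point per library, the group mean as a bar and the SD as a whisker (n = 3). In TU67200, TU28279, TU19335 and TU73397 all A180d and A2Y points lie above all E55d and B0d points, and the WB mean lies between the early and the adult means.

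Over all 90 members the median margin was 0.92, and 71 of them had all 6 A180d and A2Y libraries above all 6 E55d and B0d libraries. Of all 15040 lncRNAs, 2.09% had this separation. As the rule used this very contrast, nothing is read from the difference. In the remaining 19 members at least 1 early library reached the level of an adult one, as in TU8583, which had 3.22, 4.46 and 2.65 at E55d, 4.93, 1.60 and 4.67 at B0d and at least 4.45 in each adult domestic library. The members just inside the limit of 0.75 were TU29928 (margin 0.751), TU41050 (0.756) and TU43874 (0.758), and those just outside were TU32800 (0.749), TU80198 (0.741) and TU7129 (0.740).

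The members spanned a wide range of abundance. Averaged over the 18 libraries, 40 were below 1 on the log2(FPKM+1) scale, 36 were between 1 and 3, and 14 were above 3. Their median of 1.10 exceeded the average level of 90.3% of all lncRNAs, which a rule that asks for a difference of 0.75 favours. The most abundant member was TU18089, with 3.59, 3.72 and 3.88 at E55d, 3.58, 3.90 and 4.32 at B0d, 4.89, 4.85 and 5.09 at W30d, 5.65, 5.20 and 5.57 at A180d, 5.29, 6.0 and 5.26 at A2Y, and 6.28, 5.93 and 5.40 in WB. TU78162 followed, with a mean over all libraries of 4.61, then TU8583 (4.48), TU13146 (4.35) and TU73635 (4.24). All 5 were detected in every fetal library.

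At the other end, 5 members were not detected in any of the 6 early libraries: TU29928, TU31198, TU73399, TU76164 and TU43874. The first 4 have the highest adult means of these. TU73399 was also undetected in all 3 W30d libraries and then had 1.25, 0.60 and 1.22 at A180d, 0.74, 0.88 and 0.81 at A2Y, and 0.56, 0.88 and 0.52 in WB. TU29928 also had no signal up to W30d and then 0.73, 1.25 and 0.27 at A180d, 1.70, 0.91 and 0.91 at A2Y, and 0.79, 0.53 and 0.15 in WB. TU31198 was detected in 1 W30d library (1.51), and TU76164 in 1 W30d library (1.04) but not in the second A180d library.

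A further 36 members were detected in some early libraries and 49 in all of them, and the latter 49 were detected in all 18 libraries. Where a transcript is not detected, a low level and an absent one cannot be told apart, since no read counts are given and the amount of sequence differs between libraries. When a level of at most 0.1 FPKM was also taken as absent, 11 members were absent from the early libraries.

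W30d was not used to select the members, apart from its part in the ceiling, and it shows how far the adult level had been reached after weaning. For each member, the W30d mean was placed on a scale on which 0 is the mean of the 2 early groups and 1 the mean of the 2 adult domestic groups. The median position was 0.51, with quartiles at 0.32 and 0.69, so that the typical member lay midway. By this scale, 24 members were below 0.333 at W30d, 39 were between 0.333 and 0.667, and 27 were above 0.667. The early and adult means that set the scale were part of the rule, so the position is a description.

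Members that were still at the early level at W30d included TU50790, TU12701, TU2317 and TU7641, which had the lowest positions. TU50790 had 0.16, 0.00 and 0.00 at W30d against 1.50, 1.84 and 1.41 at A180d and 1.25, 1.32 and 0.87 at A2Y. TU12701 had 0.31, 0.58 and 0.30 at W30d, within its E55d and B0d range of 0.17 to 0.67, and 1.40, 0.86 and 1.98 at A180d. TU2317 was not detected at B0d, had 0.13, 0.49 and 0.14 at W30d and 1.47, 2.00 and 2.44 at A180d, although 1 E55d library had 1.3. TU7641 had at most 0.13 at W30d, and in A2Y it had 2.23, 1.55 and 1.05.

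Members that were already at or above the adult level at W30d were fewer. The W30d mean exceeded the mean of the adult groups in 5 members, and these 5 had their highest group mean at W30d. They were TU24209, TU8583, TU30531, TU17801 and TU65997. TU24209 had 0.00, 0.00 and 0.00 at E55d, 0.35, 0.00 and 0.00 at B0d, and then 1.93, 1.91 and 1.44 at W30d, all above its A180d (1.03, 1.01 and 1.40) and A2Y (1.08, 0.93 and 1.07) libraries. In TU8583 the 3 W30d libraries had 5.48, 5.47 and 5.52, above every other library of this transcript. TU17801 had 3.35, 4.77 and 4.47 at W30d, and its A180d and A2Y libraries lay between 3.11 and 4.42, so that the groups overlapped.

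**Figure D3:**
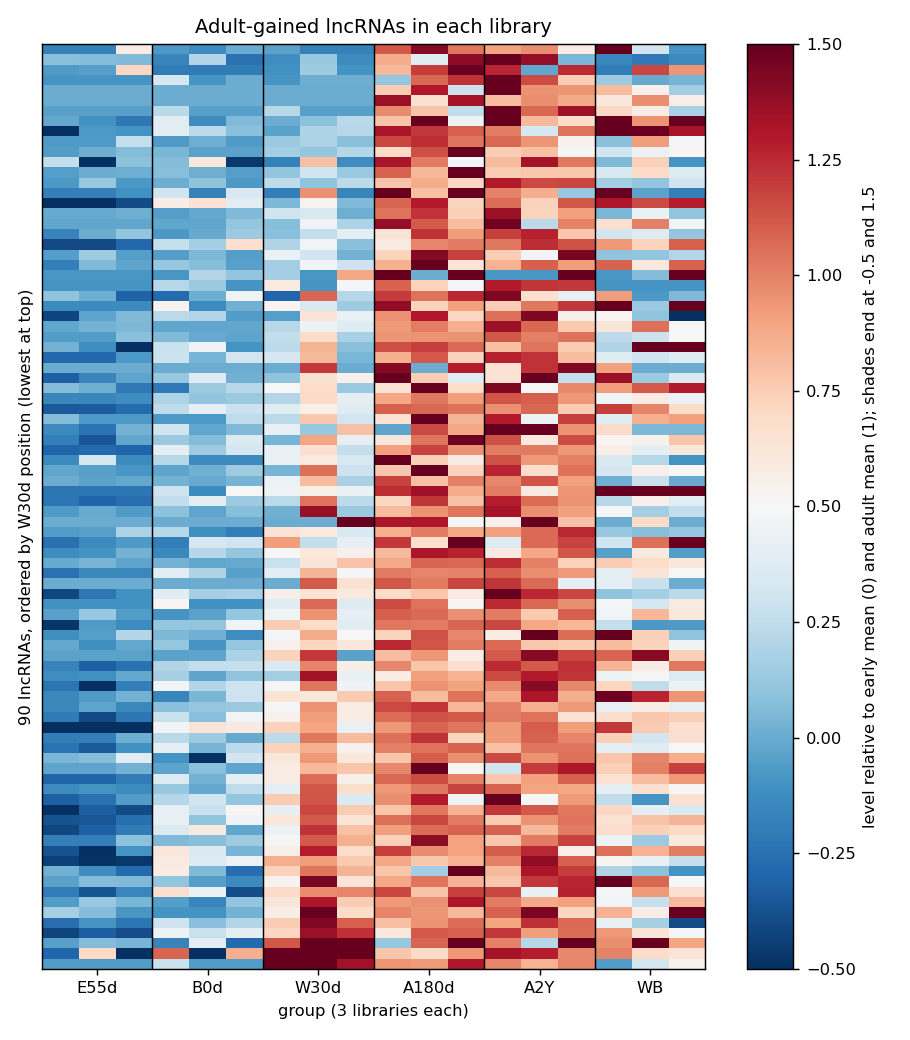
Level of each of the 90 members (rows, ordered by the W30d position, lowest at the top) in each library (columns, 3 per group), scaled so that 0 is the member's mean over E55d and B0d and 1 its mean over A180d and A2Y. The middle W30d column is closer to the adult shade than its neighbours over most rows, with a median position of 0.80 against 0.40 and 0.41.

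The 3 W30d libraries did not agree on this scale. The median position of the members was 0.40 in the first, 0.80 in the second and 0.41 in the third library, and 66 of the 90 members were highest in the second, which was also the highest of the 3 for 51.6% of all lncRNAs. Without the second library the median W30d position was 0.38. Markers of red blood cell precursors, EPOR and SLC4A1, moved with this library: their summed FPKM was 206 in the first, 2.02 in the second and 158 in the third W30d library, against 2.27 to 4.18 at A180d and 215 to 288 at E55d. TU67200, TU28279 and TU50529, for which the second library was far above the other W30d libraries, depend on it for their position. In bulk tissue, fewer cells of a type and less RNA per cell cannot be told apart, and the part of cell composition in the members' values was not tested.

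Step by step, B0d exceeded E55d in the group mean of 68 members and was lower in 17. W30d exceeded B0d in 81 members, with a median difference of 0.50 on the log2 scale, while the median over all lncRNAs was -0.13. In 42 members all W30d libraries were above all B0d libraries, a separation found for 3.22% of all lncRNAs. A180d exceeded W30d in 83 members, with a median difference of 0.63 against -0.18 over all lncRNAs, and in 40 members the groups did not overlap, against 2.92% of all lncRNAs. B0d and A180d entered the rule, which favours low B0d and high A180d values, and these differences are given without a test. The mean was higher at each of the 3 steps up to A180d in 57 members, and at each of the 4 steps up to A2Y in 24.

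From A180d to A2Y the members as a whole stayed level. The median difference, A2Y minus A180d, was -0.0061 with quartiles at -0.20 and 0.24, 43 members being higher and 47 lower at A2Y. Over all lncRNAs the median difference was 0.24 and 85.0% were higher at A2Y. All A2Y libraries were above all A180d libraries in 12 members, whereas 43.9% of all lncRNAs had this separation. The opposite separation was seen in 5 members (TU78686, TU22306, TU29336, TU80019 and TU50790) and in 1.34% of all lncRNAs. Both groups entered the rule, so this is a description. When each library was scaled by its lncRNAs, a setting chosen after the data were seen that centres the general difference between the stages, the median difference of the members was -0.85.

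TU13146 had the largest increase between the adult groups, from 4.77, 4.94 and 4.58 at A180d to 6.40, 5.86 and 5.70 at A2Y. TU71293 went from 4.67, 4.37 and 4.56 to 4.98, 5.99 and 5.23, and TU29925 from 1.27, 1.04 and 0.38 to 2.00, 1.39 and 1.73. In all 3, every A2Y library was above every A180d library. TU31304, with 0.32, 2.12 and 1.71 at A180d and 2.72, 2.63 and 1.81 at A2Y, overlapped.

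The largest decreases were in transcripts whose A180d libraries differed widely. TU60417 had 4.38, 2.29 and 4.02 at A180d and 2.77, 2.44 and 0.70 at A2Y. TU43784 had 1.07, 1.70 and 3.11 against 1.14, 1.20 and 0.75, and TU22306 had 2.02, 1.57 and 3.27 against 1.43, 1.47 and 1.47. TU68876 shows how a mean over 3 animals can admit a member: it had 2.42, 0.10 and 2.88 at A180d, 0.00, 0.00 and 2.91 at A2Y, and 0.00, 0.18 and 3.58 in WB, so that it was high in some animals of each adult group and near 0 in the others. As a separate point on the whole set, 70 lncRNAs met the rule without the second A180d library, of which 69 are among the 90. TU68876 was near 0 in that library and is not among the members lost.

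Wild Boar was the other group the rule did not use, apart from the ceiling. Comparing WB with W30d therefore asks, in libraries outside the rule, whether the members differ between these groups. The groups differ in breed and origin as well as in age, and these cannot be told apart here. On the deposited values the members had no common direction. The median difference, WB minus W30d, was 0.04 with quartiles at -0.30 and 0.46, and 47 members were higher and 43 lower in WB, against a median of -0.16 over all lncRNAs, of which 22.4% were higher. All WB libraries were above all W30d libraries in 15 members (16.7%), against 4.3% of all lncRNAs, and all W30d libraries above all WB libraries in 10 (11.1%), against 30.7%. With limma, a linear model fitted on the 14129 lncRNAs above 0.1 FPKM in at least 3 libraries, with Benjamini-Hochberg adjustment at 0.05, 8 of the 90 members (8.89%) were higher in WB, against 1.99% of the lncRNAs tested, and 5 (5.56%) were lower, against 11.8%. Without 1 library at a time, from 7 to 9 members were higher and from 3 to 8 lower, with 8 lower without the first W30d and 3 lower without the second WB library. All 90 members passed the filter on low values, which a high level in the adult domestic libraries alone can achieve. The members are more abundant than most lncRNAs, and the background shares depend on abundance. Among the 5937 lncRNAs above 1 FPKM in at least 3 libraries, 251 were called higher and 1587 lower, both larger shares than among the 14129. Of the 84 members among them, 9 were higher and 7 lower.

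The split between higher and lower calls depends on how the general level of lncRNAs is treated. When libraries were scaled by their lncRNAs, which moved the median difference over the lncRNAs tested from -0.18 to -0.03, 26 members were higher (background 8.59%) and 1 was lower (background 6.86%), and the median of the members was 0.60. Scaling by protein-coding genes gave 7 higher and 5 lower. With only W30d and WB in the model, 3 members were higher and 2 lower, against 68 and 333 of the 14129 lncRNAs tested. That model takes the spread from these groups alone and rests on fewer libraries.

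TU17640 had the largest increase from W30d to WB. It was not detected at E55d and had 1.16, 0.19 and 1.64 at B0d, 1.55, 1.76 and 1.48 at W30d, 3.32, 3.55 and 2.48 at A180d, 2.79, 1.84 and 2.64 at A2Y, and 4.64, 4.30 and 4.45 in WB. Its WB libraries were above all others, and WB exceeded W30d by 2.86 ± 0.33 (SE, limma, adjusted p = 0.00010, n = 3 per group).

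TU29336 had 1.01, 1.40 and 1.45 at W30d and 4.61, 3.72 and 3.42 in WB, with 3.41, 3.21 and 3.02 at A180d and 2.87, 1.65 and 2.92 at A2Y. The difference between WB and W30d was 2.63 ± 0.34 (SE, limma, adjusted p = 0.00022). TU198 had 2.41, 3.60 and 2.43 at W30d, below its B0d libraries (3.68, 3.87 and 3.26) in 2 of 3 animals, and 5.47, 5.12 and 5.42 in WB, a difference of 2.52 ± 0.37 (SE, limma, adjusted p = 0.00043). These calls held in all 14 alternative settings, with adjusted p up to 0.014 for TU17640, 0.041 for TU29336 and 0.044 for TU198.

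TU39585 had 0.27, 0.37 and 0.55 at W30d and 3.02, 1.44 and 3.69 in WB (2.32 ± 0.44, SE, limma, adjusted p = 0.0031). TU73635 had 3.81, 4.20 and 3.80 at W30d and 5.70, 5.23 and 4.51 in WB (1.21 ± 0.26, SE, limma, adjusted p = 0.0076). Both lost the call when only W30d and WB were in the model, with adjusted p = 0.070 and 0.086.

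The other 3 members called higher were less stable. TU78162 (adjusted p = 0.013 by limma) had adjusted p = 0.056 without the third W30d library, 0.061 without the third WB library and 0.068 with only W30d and WB in the model. TU18089 (adjusted p = 0.026) lost its call without the first or second W30d or the first or second WB library, with adjusted p from 0.054 to 0.11, and had 0.066 with the replicate number as a block, 0.080 with scaling by protein-coding genes and 0.088 with only W30d and WB in the model. TU73399, which was not detected at W30d, had adjusted p = 0.0093, and 0.053 without the second WB library and 0.052 with only W30d and WB in the model.

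Among the members lower in WB, TU24209 had 1.93, 1.91 and 1.44 at W30d and 0.00, 0.39 and 0.62 in WB, a difference of -1.42 ± 0.18 (SE, limma, adjusted p = 0.00017) that kept its call in all 14 alternatives, with adjusted p up to 0.045. TU65997 had 3.21, 4.16 and 3.70 at W30d and 2.76, 2.39 and 1.61 in WB (-1.44 ± 0.28, SE, limma, adjusted p = 0.0033). TU71293 had 4.61, 4.74 and 4.33 at W30d and 3.72, 3.45 and 3.01 in WB (-1.17 ± 0.26, SE, limma, adjusted p = 0.0083). Within each of these transcripts no WB library reached a W30d library, but the calls of TU65997 and TU71293 were lost with scaling by lncRNAs (adjusted p = 0.090 and 0.39) and with only W30d and WB in the model (0.079 and 0.056).

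TU80818 and TU13146 were also called lower (adjusted p = 0.017 and 0.022 by limma). TU80818 had adjusted p = 0.052 without the first W30d, 0.074 without the second WB and 0.069 without the third WB library, 0.074 with only W30d and WB in the model, and 0.33 with scaling by lncRNAs, where its difference was -0.39. TU13146 had adjusted p = 0.052 without the second and 0.058 without the third W30d library, and 0.073 without the first and 0.064 without the second WB library, and 0.0525 with only W30d and WB in the model, and with scaling by lncRNAs its difference turned from -0.82 to 0.02. The other 77 members were not called in either direction, which does not show that they were equal in both groups.

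**Figure D4:**
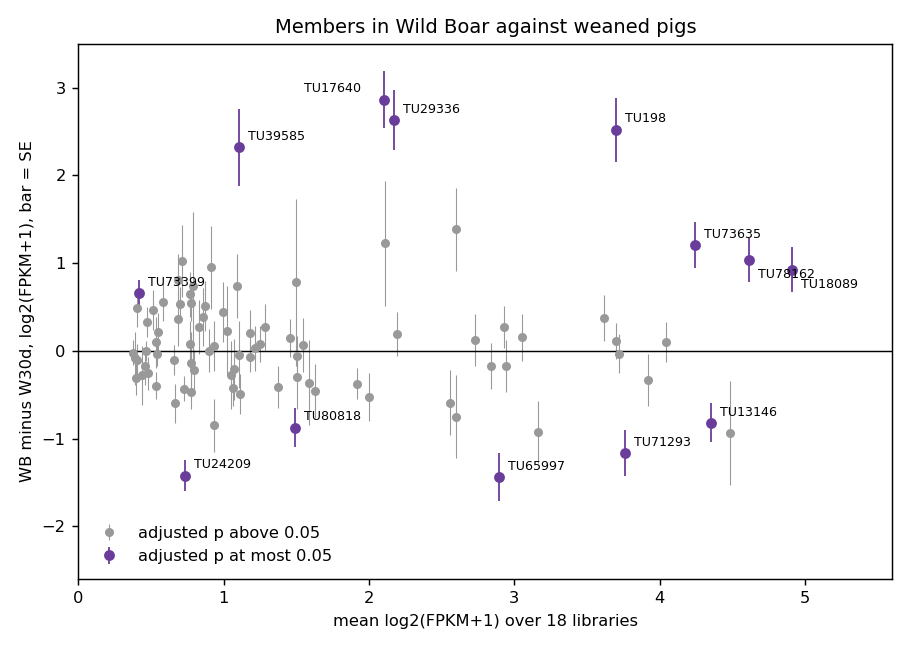
Difference between the WB and W30d means of each member on the log2(FPKM+1) scale (vertical axis, bars are SE from limma) against its mean over 18 libraries (horizontal axis), with the 13 members at an adjusted p of at most 0.05 in purple and named. The 8 purple points above 0 reach 2.86 for TU17640, and the 5 below 0 reach -1.44 for TU65997.

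Between the breeds at 2 years, the WB mean was below the A2Y mean in 76 members and above it in 14 (15.6%), close to the share among all lncRNAs, of which 14.0% were higher in WB. The members had a median difference, WB minus A2Y, of -0.57 and quartiles at -0.95 and -0.20, against a median of -0.22 over all lncRNAs. In 43 members all A2Y libraries were above all WB libraries, or 47.8%, while 38.6% of all lncRNAs showed this. As the members were chosen for a high A2Y mean, a lower value in libraries outside the rule can follow from the choice, and no test is given. With scaling by lncRNAs the median difference turned to 0.13.

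The members most reduced in WB were TU13146, TU71293, TU74534 and TU50529. TU74534 was not detected in any WB library, whereas A2Y had 1.99, 1.87 and 1.87 and A180d had 1.70, 1.16 and 0.82. TU13146 had 3.66, 3.79 and 3.92 in WB, within the B0d range of 3.81 to 4.22 or just below it. In the opposite direction, all WB libraries were above all A2Y libraries in 3 members, TU17640, TU198 and TU29336, a separation seen in 2.03% of all lncRNAs. TU80019 had a high mean in WB because of 2 animals, with 2.00, 4.42 and 4.52 in WB and 2.84, 3.17 and 2.77 at A2Y.

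On the scale with the early mean at 0 and the adult domestic mean at 1, the WB mean of the members had a median position of 0.52, with quartiles at 0.30 and 0.81. It was below 0.333 in 25 members, between 0.333 and 0.667 in 28 and above 0.667 in 37, of which 13 were above 1. The 3 WB libraries were alike, with median positions of 0.52, 0.57 and 0.50. These positions rest on the deposited values and were not computed with scaling by lncRNAs. Under that scaling the median WB minus A2Y over the members turned from -0.57 to 0.13. In 81 members the WB mean exceeded both early means, and in 35 it did so by at least 0.75. A middle position at W30d and in WB did not come from the same members in all cases: 9 members were below 0.333 at W30d and above 0.667 in WB, and 4 were above 0.667 at W30d and below 0.333 in WB.

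**Figure D5:**
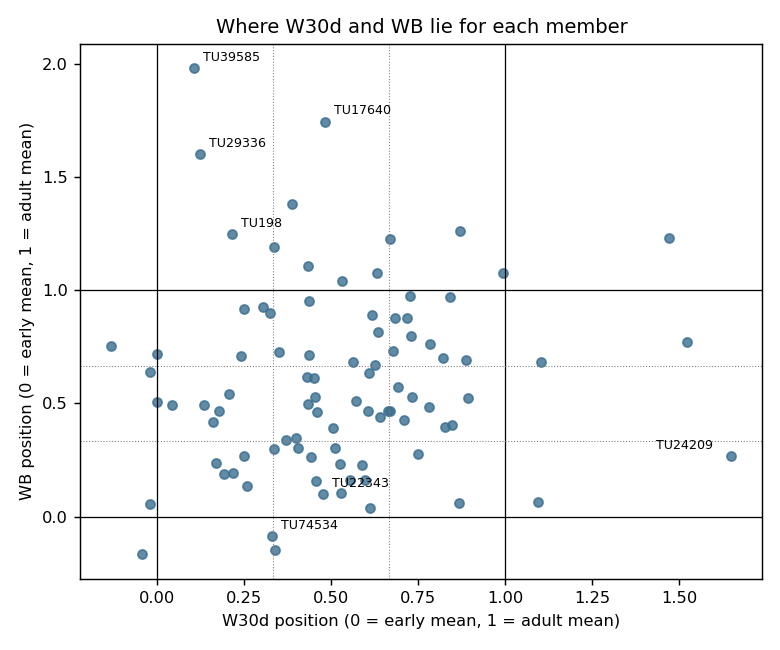
Position of the W30d mean (horizontal axis) and of the WB mean (vertical axis) of each of the 90 members on a scale with 0 at the mean of E55d and B0d and 1 at the mean of A180d and A2Y, with dotted lines at 0.333 and 0.667. The points scatter widely, from TU39585, TU29336 and TU198 at the upper left, where 9 members were low at W30d and high in WB, to TU24209 at the lower right.

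Several members carry neighbouring identifier numbers, and in the part of the study's list of positions that was read, close numbers were transcripts on the same chromosome, some of which overlap. Such members may share reads, which was not tested. There were 8 neighbouring pairs with numbers at most 3 apart. TU28277, TU28278 and TU28279 form a run of 3, all with margins of at least 1.56, and TU28277 had 1.25, 1.57 and 1.38 at W30d, 2.59, 2.35 and 2.13 at A180d and 1.75, 1.59 and 1.09 in WB, while TU28278 had 1.29, 2.26 and 1.48, then 2.68, 2.79 and 2.00, and 1.16, 1.47 and 1.16.

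TU73634 and TU73635 had like levels at B0d and W30d and not at the other ages. At E55d they had 1.43, 1.34 and 1.46 against 2.13, 2.15 and 2.30. At B0d they had 3.38, 3.68 and 3.61 against 3.49, 3.87 and 3.60, and at W30d 3.87, 4.19 and 3.29 against 3.81, 4.20 and 3.80. At A180d they had 4.26, 4.55 and 4.46 against 5.48, 5.43 and 5.35. TU80817 and TU80818 shared the level at A2Y, with 2.27, 2.60 and 2.59 against 2.60, 2.17 and 2.09, but had 1.76, 1.73 and 1.88 against 1.21, 0.70 and 0.72 in WB. TU78117 and TU78118 were both highest in the first WB library, at 2.08 and 2.72. The other pairs were TU22305 with TU22306, TU73397 with TU73399, and TU29925 with TU29928.

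Markers of spleen cells were looked up among the protein-coding genes to check the tissue and to place values beside the members. Symbols were found for 63.6% of the protein-coding identifiers and 23 of the 44 listed markers were measured, which is below the 80% set for using the lists, so the sums and levels of the measured markers are given as values and do not stand for the whole lists. The B cell surface genes CD79B and MS4A1 (CD20) were detected in all 18 libraries, at no less than 2.77 and 2.18 on the log2(FPKM+1) scale, as were C1QA and MARCO of macrophages.

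CD79B, a part of the B cell receptor, went on the log2(FPKM+1) scale from a mean of 2.91 in the fetus and 3.54 at birth to 5.11 at W30d, 6.29 in A180d and 5.78 in A2Y animals, with 4.42 in WB. MS4A1 had 2.35, 3.62, 4.90, 5.62, 5.91 and 3.95, and CD22 had 1.47, 2.33, 3.26, 3.74, 3.76 and 2.61 in the same order of groups. In all 3 of these B cell genes the WB mean was below the W30d mean. The median WB minus W30d over the members was 0.04 on the deposited values, against -0.16 over all lncRNAs. It was -0.02 with scaling by protein-coding genes and 0.60 with scaling by lncRNAs, so it depended on the scaling. Whether the members follow the B cell genes was not tested.

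The 4 T cell markers measured, CD3D, CD2, CD5 and LCK, had a summed FPKM from 1.63 to 1.75 at E55d, from 24.2 to 43.6 at B0d, from 63.1 to 166 at W30d, from 203 to 254 at A180d, from 128 to 248 at A2Y and from 82.4 to 94.8 in WB. The 2 NK cell markers, NKG7 and GNLY, had from 1.44 to 2.06 at E55d, from 7.35 to 8.33 at B0d, 13.8, 80.04 and 18.6 at W30d, from 37.7 to 97.8 at A180d, from 26.1 to 55.9 at A2Y and from 39.7 to 46.8 in WB. In both sets the second W30d library was the highest of its group, as it was for most members. The summed macrophage markers (1667 against 968 and 1082) and plasma cell markers (35.2 against 33.8 and 19.7) were also highest in it. The summed red blood cell precursor, dividing cell and endothelial markers were lowest in it.

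MZB1 and SDC1 are expressed by plasma cells, and between E55d and A180d they differed in direction. MZB1 had a mean of 1.43 in the fetus and 2.59 at birth, 4.79 at W30d, 8.32 in A180d and 7.02 in A2Y animals, and 6.54 in WB, while SDC1 was highest at E55d, with 3.17, and had 2.42 at A180d and 1.75 in WB.

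Among the 4 macrophage markers, the summed FPKM was from 2562 to 3274 in WB and at most 1667 in a domestic library, and this sum was mostly C1QA, with group means of 11.34 in WB and 10.39 at A180d. CD68 was also highest in WB, at 5.24. CSF1R had a mean of 2.52 in WB against 3.38 to 3.65 in the domestic groups from B0d on. Its WB libraries differed widely, with an SD of 1.64 against at most 0.34 in these domestic groups. The WB mean of CSF1R is therefore not a level that its libraries share. MARCO had 7.22 in WB against 7.88 at B0d and 7.80 at A180d.

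The 3 markers of dividing cells, TOP2A, CDK1 and CCNB1, had a sum from 133 to 177 at E55d, from 48.6 to 112 at B0d, 263, 81.1 and 234 at W30d, from 32.8 to 63.6 at A180d, from 18.5 to 46.7 at A2Y and from 6.18 to 14.6 in WB. The second W30d library thus stood apart from the other W30d libraries in this set too. The 2 endothelial markers, PECAM1 and KDR, had from 43.4 to 48.8 at E55d, from 22.5 to 31.0 in the adult domestic libraries and from 26.4 to 49.6 in WB. The part of these cell types in the levels of the members was not tested.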

How the data were processed

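Total RNA of 18 pig spleens was sequenced as strand-specific paired-end libraries. Per the labels and the methods of the study, the authors mapped reads with TopHat to a pig genome (Sscrofa10.2 in the submitters' processing notes) with replaced sex chromosomes, assembled transcripts, filtered lncRNAs with Cufflinks 2.2.1 tools and coding-potential filters, and quantified FPKM with StringTie 1.3.3. The deposited values are log2 values, log2(FPKM+1), 1 column per library. Scaling between libraries beyond FPKM is not given in the sources used here, and FPKM depends on the few most abundant transcripts.

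Cells without a value (52256) were read as FPKM 0. The members and lists were chosen with earlier results of these data known. The test planned for FPKM was run on the deposited log2 values: limma 3.58.1 in R 4.3.3, with 1 model for 6 groups, a mean-variance trend, Benjamini-Hochberg adjustment over 14129 lncRNAs above 0.1 FPKM in at least 3 libraries, and a threshold of 0.05. The fit was tested on simulated data. Other values used Python 3.11.15, numpy 2.4.6 and pandas 2.3.3, and figures matplotlib 3.10.9. Named lncRNAs were the members at the extremes of margin, mean level, W30d position and the differences WB minus W30d, A2Y minus A180d and WB minus A2Y, those absent early with the highest adult means, and those nearest the limit. Other members named were chosen after their values were seen. Alternatives were other filters, pseudocounts, margins, scalings, medians, models and libraries left out. P-values set a difference against the spread between animals within groups. That spread was pooled over the 6 groups and moderated over the lncRNAs tested. The summed level of the B cell markers is not reported here, and other B cell genes are given singly.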

Additional observations from a re-analysis of the deposited data

How the results depend on the processing

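The number of members was 185 with a margin of 0.5, 30 with a margin of 1, 611 with a pseudocount of 0.1, which enlarges differences of low values, and 175 with libraries scaled by their lncRNAs (added after the data were seen). Scaling by protein-coding genes gave 79 members and group medians gave 92. Leaving out 1 library at a time gave 70 to 101. With a pseudocount of 0.1, 13 members were called higher and 8 lower in WB than at W30d, with only these groups in the model 3 and 2, and with scaling by lncRNAs 26 and 1. Without 1 library at a time these counts were 7 to 9 and 3 to 8. The cause was not tested. The median WB minus W30d over the members was 0.60 with scaling by lncRNAs and -0.09 to 0.26 without 1 library, the median A2Y minus A180d was -0.85 and -0.05 to 0.07, and the median WB minus A2Y was 0.13 and -0.64 to -0.44, or -0.89 with a pseudocount of 0.1. The median W30d position was between 0.38 and 0.60 without 1 library. Of the members, 11 were absent early when 0.1 FPKM counted as absent. For TU13146 the difference between WB and W30d was 0.0245 with scaling by lncRNAs.

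W30d and WB share replicate numbers only. The deviations of same-numbered libraries from their group means correlated at -0.0223, -0.0256 and -0.0767. Libraries with different numbers were not compared, so these values alone cannot settle whether the numbers pair libraries. W30d and WB come from separate animals of different breeds. With the replicate number as a block, fitted without E55d, 7 members were higher and 5 lower. The files hold no read counts, and differences of lncRNAs near 0 FPKM were not resolved.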
